A study of Mus musculus with 17 samples.

Results

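The genes described here are 8 components of epithelial cell contacts and of the cadherin switch: the cadherin genes Cdh1, Cdh2 and Cdh3, the adhesion gene Epcam, the claudin genes Cldn4, Cldn6 and Cldn7, and Tjp1, which encodes the tight junction scaffold ZO-1. They were chosen by name with earlier results of these data known, and all 8 were found by Ensembl identifier among the 49671 genes counted. All 8 passed the filter on low counts, which left 17813 genes for testing. RNA was sequenced from the mouse embryonic stem cell line R1 with a FOXA2-Venus reporter, sorted into FOXA2-positive and FOXA2-negative cells, in a series on retinoic acid with and without BMP perturbation. FOXA2 is a forkhead transcription factor found in the ventral midline of the neural tube (floor plate) and in endoderm. The BMP4 groups had 18 hours of retinoic acid (RA), then 6 untreated hours and 8 hours of the bone morphogenetic protein BMP4, with 3 FOXA2-positive and 3 FOXA2-negative libraries. The LDN groups had the same 18 and 6 hours followed by 8 hours of an agent labelled LDN, with 2 FOXA2-positive libraries, numbered 2 and 3, and 3 FOXA2-negative libraries. The RA groups had 18 hours of RA, with 3 libraries of each fraction. RA libraries may therefore also differ from the others in time of collection, which cannot be told apart from the treatment. Every library carries the same reporter line, and the labels do not say that replicates were grown as separate cultures, so the tests measure the spread between these libraries, which may be technical.

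Epithelial cells adhere through cadherins, which bind their own kind on the neighbouring cell and are tied to actin by catenins, while claudins and ZO-1 seal the gap between cells at tight junctions. Pluripotent cells and early ectoderm carry E-cadherin, the product of Cdh1. As the neural plate forms, E-cadherin gives way to N-cadherin, the product of Cdh2, a change known as the cadherin switch, and a similar exchange marks epithelial to mesenchymal transition.

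Each library held 8435845 to 10796136 gene counts, with 16139 to 18457 genes detected. Foxa2 followed the sort, with 25.9 ± 2.80 CPM in BMP4 FOXA2-positive, against 0.775 ± 0.860 CPM in BMP4 FOXA2-negative cells (SD, n = 3 each), 42.0 ± 3.17 CPM in LDN FOXA2-positive (n = 2), against 1.85 ± 1.61 CPM in LDN FOXA2-negative cells (n = 3), and 23.0 ± 6.82 CPM in RA FOXA2-positive, against 0.311 ± 0.1003 CPM in RA FOXA2-negative cells (n = 3 each). CPM are gene counts scaled to the size of each library after TMM normalisation. Of 7 floor plate markers only Foxa2 was called between the fractions, Ferd3l had no count in any library, and Shh, the signal of the mature floor plate, had none in BMP4 and RA FOXA2-positive cells. The fraction is therefore named here by its sort and not as floor plate. Both RA libraries numbered 1 stood apart, with deviations from their group means that correlated at 0.587 over 6669 genes, and the results of the 8 genes that depended most on them are also given without them.

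The bases before the transcription start are shown for Cldn4 and Epcam, which were called between the fractions, because repressors of E-cadherin of the Snail and ZEB families are known to bind the hexamer CACCTG. RefSeq upstream sequence of GRCm38.p6 was at hand for 5 of the 8 genes, in 6 windows of 250 bases ending at the RefSeq start, with a pair of starts for Cldn7. Each is written 5′ to 3′ on the strand of its gene, in lower case, with CACCTG or its reverse complement CAGGTG in capitals. The Cldn4 window is chr5:134946935-134947184 on the minus strand and the Epcam window is chr17:87635729-87635978 on the plus strand, and both end where the GENCODE gene begins.
Cldn4: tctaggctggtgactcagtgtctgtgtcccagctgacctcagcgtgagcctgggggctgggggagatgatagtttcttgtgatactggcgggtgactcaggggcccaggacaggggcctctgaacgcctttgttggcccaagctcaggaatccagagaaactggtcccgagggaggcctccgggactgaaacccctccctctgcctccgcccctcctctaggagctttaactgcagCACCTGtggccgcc
Epcam: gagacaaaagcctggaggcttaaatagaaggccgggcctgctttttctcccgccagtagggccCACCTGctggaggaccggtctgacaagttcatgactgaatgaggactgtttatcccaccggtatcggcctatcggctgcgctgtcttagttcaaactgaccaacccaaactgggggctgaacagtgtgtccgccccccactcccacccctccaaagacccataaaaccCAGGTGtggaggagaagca
The hexamer began 14 bases before the start of Cldn4, and 187 and 19 bases before that of Epcam. It began 93 bases before the RefSeq start of Cldn6, which lies 116 bases inside the GENCODE gene, so that match is within the gene as GENCODE places it. Cldn7 had it 97 and 57 bases before the RefSeq start that lies 642 bases inside the gene, and not before the other. The Tjp1 window did not hold it and belongs to a start 156537 bases inside the gene. Among all 32851 windows of this length, 17.2% held the hexamer on either strand and 2.06% held 2 or more. A match is a run of letters and not a measured site.

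Levels of different genes can be compared only per length, here as CPM per kb of exon. On that scale Epcam was highest, with a mean of 78.7 ± 16.1 CPM per kb over the 17 libraries (SD), followed by Cldn6 (47.1 ± 10.1), Cldn4 (28.8 ± 15.5), Cdh1 (22.0 ± 6.62) and Cldn7 (19.3 ± 6.27). Tjp1 (6.92 ± 2.18), Cdh2 (2.48 ± 1.51) and Cdh3 (0.877 ± 0.526 CPM per kb) were the lowest. The E-cadherin gene was thus the main one of the 3 cadherin genes in every library, at 72.3% to 92.9% of their summed CPM per kb. Cdh3, the P-cadherin gene, rested on 47 to 204 counts per group, so its values carry the largest error of the 8.

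**Figure D1:**
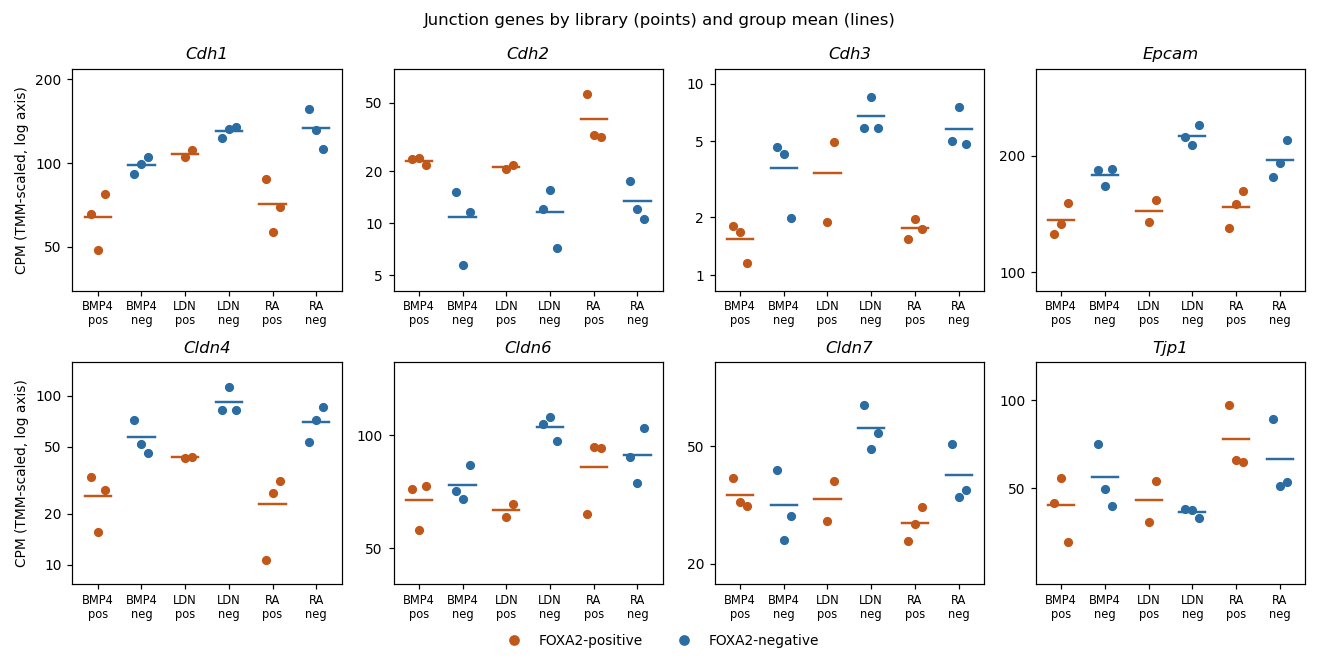
TMM-scaled CPM (log axes, a scale for each gene) of the 8 genes in each library (points) and group mean (lines), FOXA2-positive in orange and FOXA2-negative in blue. Cdh2 is higher, and Epcam and Cldn4 are lower, in each of the 8 FOXA2-positive libraries than in all 9 FOXA2-negative libraries.

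The first comparison set FOXA2-positive against FOXA2-negative cells, as the mean of the contrasts in the 3 treatments. FOXA2-positive cells held more Cdh2 and less Cdh1, Epcam and Cldn4, and these 4 genes passed the test. A gene is said to pass, or to be called, when edgeR's quasi-likelihood test gave a Benjamini-Hochberg adjusted p under 0.05 over all genes. In this comparison 7.62% of all genes tested were called, 3.12% higher and 4.5% lower. The median log2 fold change was -0.44 over the 8 genes and -0.03 over all genes. The library values of 3 of the 8 genes did not overlap at all between the fractions, Cdh2 being higher and Epcam and Cldn4 lower, against 1.15% of all genes. In bulk RNA, fewer cells that carry a transcript and less of it per cell cannot be told apart.

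Within treatments the calls were fewer. In RA, 3 of the 8 genes passed, Cdh2 higher and Cdh1 and Cldn4 lower, against 1.19% of all genes. In BMP4 none of the 8 passed edgeR's test, against 0.921% of all genes. DESeq2 called Cdh1 and Cldn4, and 4 of the 8 had an unadjusted p under 0.05, as had 1927 of all 17813 genes. In LDN none passed either, against 0.994% of all genes. DESeq2 called Epcam and Cldn6, and 5 of the 8 had an unadjusted p under 0.05, as had 1988 of all 17813 genes. All 3 treatments had 6 negative and 2 positive fold changes among the 8 genes, with medians of -0.35 in BMP4, -0.69 in LDN and -0.47 in RA. The libraries of the fractions did not overlap for 5 genes in BMP4, 7 in LDN and 6 in RA, where 14.8%, 27.8% and 15.2% of all genes did not overlap. LDN sets 2 libraries against 3, the other treatments 3 against 3. The 3 RA calls were lost when the spread was estimated from the RA libraries alone, a fit that called 127 genes in place of 212.

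**Figure D2:**
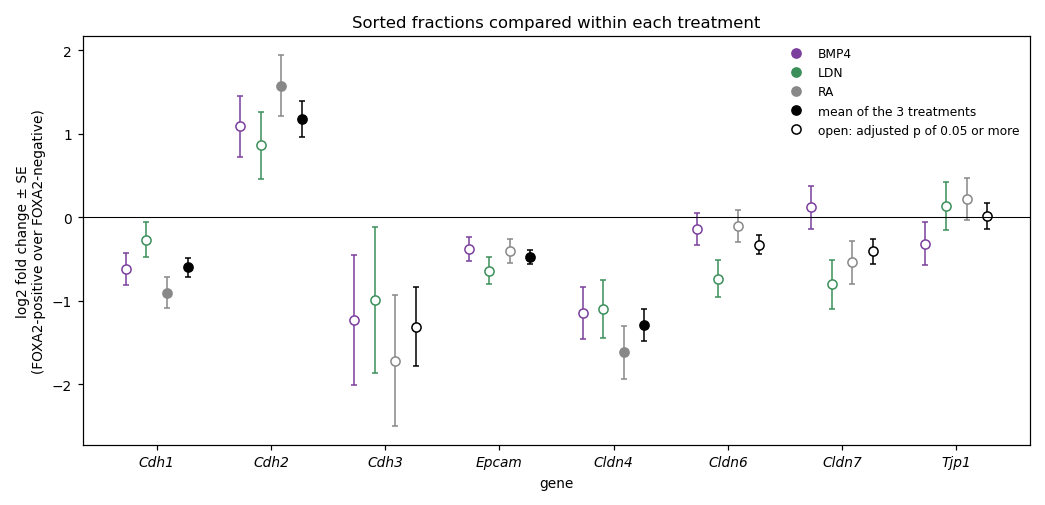
Log2 fold change of FOXA2-positive over FOXA2-negative cells (y axis, bars ± SE) for each gene in BMP4, LDN and RA and as their mean, filled where the adjusted p is under 0.05. Cdh2 lies above 0 and Cdh1, Cdh3, Epcam and Cldn4 below 0 in all 3 treatments, while Cldn7 and Tjp1 differ in sign between treatments.

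Cdh1 (ENSMUSG00000000303, chromosome 8, 106603351 to 106670246, plus strand, mm10) encodes E-cadherin, the main cadherin of epithelia and of pluripotent cells. In BMP4 it stood at 65.5, 48.8 and 77.5 CPM in the FOXA2-positive libraries, against 91.1, 99.1 and 105 CPM in the FOXA2-negative ones. After LDN the FOXA2-positive libraries held 105 and 111 CPM, against 123, 133 and 134 CPM in FOXA2-negative libraries. In RA the values were 87.9, 56.4 and 69.7 CPM in FOXA2-positive cells, against 156, 132 and 112 CPM in FOXA2-negative cells. The fractions did not overlap in any treatment, and both LDN FOXA2-positive libraries lay above all 3 BMP4 FOXA2-negative libraries. By group mean, Cdh1 ran upward through BMP4 FOXA2-positive (63.9 ± 14.4 CPM) and RA FOXA2-positive cells (71.3 ± 15.8), whose libraries overlap, then BMP4 FOXA2-negative (98.4 ± 6.93), LDN FOXA2-positive (108 ± 4.41), LDN FOXA2-negative (130 ± 6.11) and RA FOXA2-negative cells (133 ± 21.9), of which the last pair overlap. The log2 fold change between fractions was -0.60 ± 0.11 (SE) as the mean of treatments (edgeR adjusted p = 0.00116) and -0.90 ± 0.19 in RA (adjusted p = 0.0122). It was -0.62 ± 0.19 in BMP4 (adjusted p = 0.142) and -0.27 ± 0.21 in LDN (adjusted p = 0.651). The RA call was lost without FOXA2-negative library 1 (adjusted p = 0.0567), FOXA2-positive library 2 (0.114) or FOXA2-positive library 3 (0.0639), and it held without both libraries numbered 1 (-0.95, adjusted p = 0.0306).

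Genes of chromosome 8, where Cdh1 and Cdh3 lie, were lower as a whole in FOXA2-positive cells. Of the genes that averaged 20 CPM or more, 407 lie on chromosome 8, and their median log2 fold change was -0.30 in BMP4, -0.27 in LDN, -0.31 in RA and -0.29 as the mean of treatments, against 0.04 over 6262 genes of the other chromosomes. Chromosome 6, which holds none of the 8 genes, moved the other way, with a median of 0.29 over 335 genes as the mean of treatments. The fold change of Cdh1 minus the chromosome 8 median was -0.32 in BMP4, 0 in LDN and -0.59 in RA. In the mean of treatments 47 of the 407 genes were lower than Cdh1, and in LDN 203 were. Within 5 Mb on either side of Cdh1, 53 of 62 genes were lower in FOXA2-positive cells, with a median of -0.30. After each library was corrected for the offset of each chromosome, the mean fold change of Cdh1 was -0.30 (adjusted p = 0.142) and that in RA was -0.57 (adjusted p = 0.229), so neither call was kept. Cdh2, Epcam and Cldn4 kept their calls in the mean of treatments after the correction, at 1.17, -0.48 and -1.30. What moves the genes of chromosome 8 together was not tested.

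**Figure D3:**
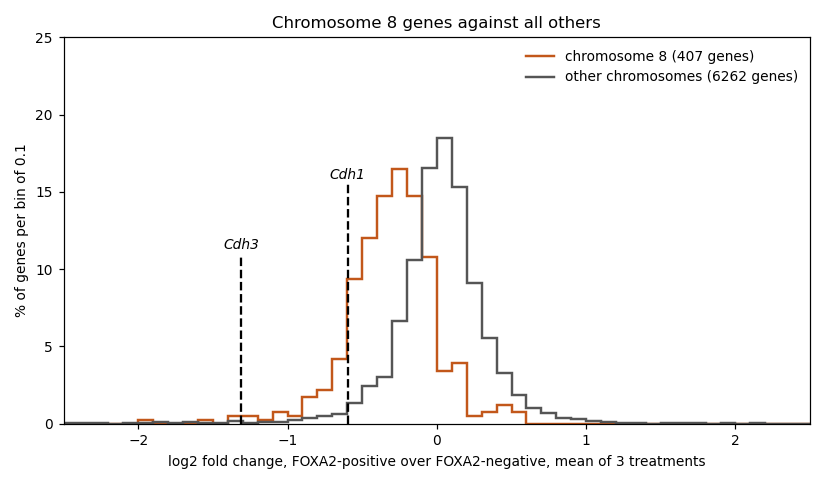
Share of genes (y axis, % per bin of 0.1) by log2 fold change of FOXA2-positive over FOXA2-negative cells, mean of 3 treatments (x axis), for chromosome 8 (orange) and all other chromosomes (grey), with dashed lines at Cdh1 and Cdh3. The chromosome 8 curve lies left of the other, with medians of -0.29 and 0.04, and Cdh1 lies on its left side, with 47 of 407 genes lower, while Cdh3 lies in its tail.

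Cdh2 (ENSMUSG00000024304, chromosome 18, 16588877 to 16809246, minus strand) encodes N-cadherin, the cadherin of the neural plate and of many mesenchymal cells. BMP4 FOXA2-positive libraries held 23.5, 24.0 and 21.9 CPM, against 15.2, 5.70 and 11.7 CPM in BMP4 FOXA2-negative libraries. LDN FOXA2-positive libraries held 20.5 and 21.7 CPM, against 12.1, 15.5 and 7.16 CPM in LDN FOXA2-negative libraries. RA FOXA2-positive libraries held 56.5, 32.6 and 31.5 CPM, against 17.7, 12.1 and 10.5 CPM in RA FOXA2-negative libraries. Every FOXA2-positive library was above every FOXA2-negative library of the series, and RA FOXA2-positive library 1 was the highest of all. By group mean, RA FOXA2-positive cells led (40.2 ± 14.2 CPM), ahead of BMP4 FOXA2-positive (23.1 ± 1.09) and LDN FOXA2-positive cells (21.1 ± 0.794). The FOXA2-negative groups lay between 10.9 and 13.5 CPM and overlapped. The log2 fold change was 1.18 ± 0.22 as the mean of treatments (edgeR adjusted p = 0.000893) and 1.58 ± 0.37 in RA (adjusted p = 0.0282). It was 1.09 ± 0.37 in BMP4 (adjusted p = 0.213) and 0.86 ± 0.40 in LDN (adjusted p = 0.421). The RA call was lost without FOXA2-positive library 1 (adjusted p = 0.199), FOXA2-negative library 2 (0.140) or FOXA2-negative library 3 (0.135), and without both libraries numbered 1 (1.50, adjusted p = 0.156). An antisense gene, Gm15485, lies within Cdh2, and since the strand setting of the counting is not given in the sources used here, reads of the overlap cannot be assigned to one of them.

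Set against Cdh1 in CPM per kb, Cdh2 was a minor transcript everywhere. In BMP4 it amounted to 21.4% ± 5.98 of Cdh1 in FOXA2-positive cells, against 6.36% ± 3.11 in FOXA2-negative cells (SD, n = 3 each). In LDN it amounted to 11.1% ± 0.0347 in FOXA2-positive (n = 2), against 5.07% ± 1.85 in FOXA2-negative cells (n = 3), and in RA to 31.6% ± 5.49 in FOXA2-positive, against 5.65% ± 0.660 in FOXA2-negative cells (n = 3 each). The lowest FOXA2-positive library was at 11.05% and the highest FOXA2-negative library at 9.49%, so the fractions were apart in all 17 libraries. Cdh1, by which the ratio divides, lies on chromosome 8, whose genes had a median log2 fold change of -0.29. The ratio was not corrected for this, and whether the narrow gap would remain after a correction was not tested. The LDN FOXA2-positive pair lay closest to the FOXA2-negative libraries. The ratio joins genes chosen together and got no test of its own. Even in RA FOXA2-positive library 1, where the ratio peaked at 36.4%, Cdh1 remained the more abundant cadherin RNA.

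**Figure D4:**
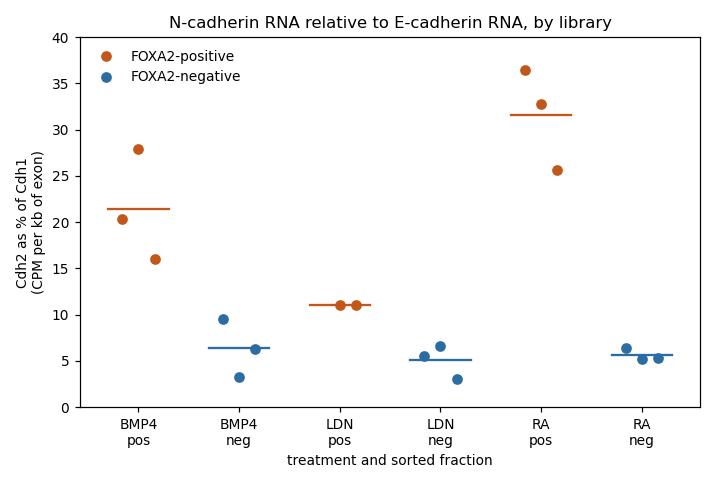
Cdh2 as a percentage of Cdh1 in CPM per kb of exon (y axis) for each library (points) and group mean (lines). RA FOXA2-positive libraries lie highest, between 25.6% and 36.4%, and all FOXA2-negative libraries lie below 10%. Values are not corrected for chromosome offsets.

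Cdh3 (ENSMUSG00000061048, chromosome 8, 106510891 to 106557297, plus strand) encodes P-cadherin, found in basal epithelial layers and placenta, and ends 46053 bases before Cdh1 begins. FOXA2-positive libraries held 1.79, 1.68 and 1.16 CPM after BMP4, 1.89 and 4.93 CPM after LDN and 1.55, 1.97 and 1.74 CPM after RA. FOXA2-negative libraries held 4.65, 4.30 and 1.98 CPM after BMP4, 5.87, 8.55 and 5.88 CPM after LDN and 5.02, 7.54 and 4.83 CPM after RA. The fractions did not overlap in any of the 3 treatments, with LDN FOXA2-positive library 3 and BMP4 FOXA2-negative library 3 apart from their own groups. At these low counts the mean log2 fold change of -1.31 ± 0.47 did not pass edgeR's test (adjusted p = 0.0960), while DESeq2 called it (adjusted p = 0.00326). With the chromosome correction it was -1.02 (adjusted p = 0.236).

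Epcam (ENSMUSG00000045394, chromosome 17, 87635979 to 87651129, plus strand) encodes the epithelial cell adhesion molecule EpCAM, a membrane protein of epithelia and embryonic stem cells that binds and stabilises claudin-7. In BMP4 it stood at 125, 133 and 151 CPM in FOXA2-positive libraries, against 183, 167 and 185 CPM in FOXA2-negative libraries. LDN gave 135 and 154 CPM in FOXA2-positive libraries, against 223, 213 and 240 CPM in FOXA2-negative libraries. RA gave 130, 150 and 162 CPM in FOXA2-positive libraries, against 176, 191 and 219 CPM in FOXA2-negative libraries. The highest FOXA2-positive library was thus below the lowest FOXA2-negative library across treatments. The log2 fold change was small in every treatment, at -0.38 ± 0.14 in BMP4 (edgeR adjusted p = 0.285), -0.64 ± 0.16 in LDN (adjusted p = 0.0529) and -0.41 ± 0.14 in RA (adjusted p = 0.239). None passed within a treatment, whereas the mean of the treatments did (-0.48 ± 0.09, adjusted p = 0.000682).

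Cldn4 (ENSMUSG00000047501, chromosome 5, 134945119 to 134946934, minus strand) encodes claudin-4, a tight junction protein that limits the passage of ions between epithelial cells. Its fold change was the largest in size of the 4 genes called in the mean of treatments. BMP4 FOXA2-positive libraries held 33.2, 15.7 and 27.8 CPM, against 72.3, 52.0 and 45.7 CPM in BMP4 FOXA2-negative libraries. LDN FOXA2-positive libraries held 42.6 and 43.7 CPM, against 82.3, 113 and 82.4 CPM in LDN FOXA2-negative libraries. RA FOXA2-positive libraries held 10.7, 26.6 and 31.3 CPM, against 53.2, 71.8 and 86.2 CPM in RA FOXA2-negative libraries. FOXA2-positive cells were below FOXA2-negative cells in every treatment, and RA FOXA2-positive library 1 was the lowest of all 17. The log2 fold change was -1.29 ± 0.19 as the mean of treatments (edgeR adjusted p = 5.21e-05), -1.15 ± 0.31 in BMP4 (adjusted p = 0.0834), -1.10 ± 0.35 in LDN (adjusted p = 0.163) and -1.62 ± 0.31 in RA (adjusted p = 0.00637). The RA call held with each of the 6 RA libraries left out and without both libraries numbered 1 (-1.45, adjusted p = 0.0207).

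Cldn6 (ENSMUSG00000023906, chromosome 17, 23679249 to 23682446, plus strand) encodes claudin-6, a claudin of embryonic stem cells and early epithelia, and Cldn7 (ENSMUSG00000018569, chromosome 11, 69964779 to 69967885, plus strand) encodes claudin-7, the partner of EpCAM. Neither passed edgeR's test, but both had their largest fraction difference after LDN. There Cldn6 stood at 60.7 and 65.6 CPM in FOXA2-positive libraries, against 107, 112 and 96.3 CPM in FOXA2-negative libraries. Its log2 fold change was -0.73 ± 0.22 (edgeR adjusted p = 0.126), and DESeq2 called it (adjusted p = 0.0391). Cldn7 stood at 27.9 and 38.3 CPM in LDN FOXA2-positive libraries, against 68.9, 49.0 and 55.5 CPM in LDN FOXA2-negative libraries (-0.80 ± 0.29, adjusted p = 0.249). In BMP4 the fractions overlapped for both genes. Cldn6 had 72.0, 56.0 and 73.4 CPM in BMP4 FOXA2-positive libraries, against 71.0, 67.4 and 83.2 CPM in BMP4 FOXA2-negative libraries (-0.14 ± 0.19). Cldn7 had 39.1, 32.5 and 31.3 CPM in BMP4 FOXA2-positive libraries, against 41.7, 24.1 and 29.1 CPM in BMP4 FOXA2-negative libraries (0.12 ± 0.26). In RA, Cldn6 overlapped, with 61.5, 93.2 and 92.5 CPM in FOXA2-positive libraries, against 87.4, 74.4 and 105 CPM in FOXA2-negative libraries (-0.11 ± 0.19), and its sign turned without both libraries numbered 1 (0.053). Cldn7 did not overlap in RA, with 23.9, 27.4 and 31.2 CPM in FOXA2-positive libraries, against 50.9, 33.7 and 35.6 CPM in FOXA2-negative libraries (-0.54 ± 0.26, adjusted p = 0.448), and its fold change was -0.24 without both libraries numbered 1. The means over treatments were -0.33 ± 0.12 for Cldn6 (adjusted p = 0.0902) and -0.41 ± 0.15 for Cldn7 (adjusted p = 0.114).

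Tjp1 (ENSMUSG00000030516, chromosome 7, 65296165 to 65527781, minus strand) encodes ZO-1, which links claudins to actin and is shared by epithelial and neuroepithelial junctions. It did not follow the sort. In BMP4 it stood at 44.5, 54.0 and 32.8 CPM in FOXA2-positive libraries, against 70.7, 49.5 and 43.5 CPM in FOXA2-negative libraries, and in LDN at 38.2 and 52.8 CPM in FOXA2-positive libraries, against 42.4, 42.0 and 39.5 CPM in FOXA2-negative libraries. In RA it stood at 96.2, 62.6 and 61.4 CPM in FOXA2-positive libraries, against 86.1, 50.6 and 52.5 CPM in FOXA2-negative libraries. The fractions overlapped in every treatment, and the RA libraries numbered 1 were the highest of their groups. The mean log2 fold change was 0.01 ± 0.15 (adjusted p = 1.00), with values of -0.32 ± 0.26 in BMP4, 0.14 ± 0.29 in LDN and 0.22 ± 0.25 in RA. The annotation places 3 further loci, Gm44792, Gm44794 and Gm44795, within Tjp1.

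The second comparison set treatments against each other within a fraction. Between BMP4 and LDN none of the 8 genes passed edgeR's test in either fraction, and the smallest p was that of a lower Cdh1 in BMP4 FOXA2-positive cells. In FOXA2-positive cells 2 of the 8 genes had an unadjusted p under 0.05, as had 1312 of all 17813 genes. There edgeR called 0.32% of all genes, and DESeq2 called Cdh1 alone among the 8. Cdh1 averaged 63.9 ± 14.4 CPM in BMP4 FOXA2-positive cells (n = 3) and 108 ± 4.41 CPM in LDN FOXA2-positive cells (n = 2), a log2 fold change of -0.76 ± 0.21 (edgeR adjusted p = 0.171, DESeq2 adjusted p = 0.0391). Cldn4 followed with 25.6 ± 8.94 CPM in BMP4 and 43.1 ± 0.773 CPM in LDN FOXA2-positive cells (-0.75 ± 0.34, adjusted p = 0.638). The 2 groups did not overlap for 4 of the 8 genes, where 22.4% of all genes did not.

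In FOXA2-negative cells 7 of the 8 genes were lower after BMP4 than after LDN, Tjp1 being the exception, with a median log2 fold change of -0.46 against 0 over all genes. Of these, 5 had an unadjusted p under 0.05, as had 1258 of all 17813 genes. None passed the adjusted test of edgeR or DESeq2, and edgeR called 0.196% of all genes. The libraries of the 2 treatments did not overlap for 7 of the 8 genes, against 11.2% of all genes. Among those 7 genes, 6 were lower after BMP4 and 1, Tjp1, was higher, while the libraries of Cdh2 overlapped. Cldn7 had the smallest p, at 31.6 ± 9.06 CPM in BMP4 and 57.8 ± 10.1 CPM in LDN FOXA2-negative cells (-0.87 ± 0.26, edgeR adjusted p = 0.290). Cldn6 averaged 73.9 ± 8.28 CPM after BMP4 and 105 ± 7.98 CPM after LDN (-0.51 ± 0.19, adjusted p = 0.604). Epcam averaged 178 ± 10.1 CPM after BMP4 and 225 ± 13.6 CPM after LDN (-0.34 ± 0.14, adjusted p = 0.686). Cdh1 averaged 98.4 ± 6.93 CPM after BMP4 and 130 ± 6.11 CPM after LDN (-0.40 ± 0.19, adjusted p = 0.699). Tjp1 was the other way, at 54.6 ± 14.3 CPM after BMP4 and 41.3 ± 1.57 CPM after LDN (0.40 ± 0.26, adjusted p = 0.771).

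Against RA, none of the 8 genes passed in either fraction after either agent. The smallest adjusted p was 0.304, for Cdh1 in FOXA2-positive cells, with 108 ± 4.41 CPM after LDN (n = 2) and 71.3 ± 15.8 CPM after RA (n = 3; 0.60 ± 0.21). In FOXA2-positive cells Cdh2 was at 23.1 ± 1.09 CPM after BMP4 and 21.1 ± 0.794 CPM after LDN, against 40.2 ± 14.2 CPM after RA (-0.80 ± 0.36, adjusted p = 0.825, and -0.93 ± 0.41, adjusted p = 0.473). Without both RA libraries numbered 1 these fold changes of Cdh2 were -0.47 and -0.60. Tjp1 was likewise at 43.8 ± 10.7 CPM after BMP4 and 45.5 ± 10.3 CPM after LDN, against 73.4 ± 19.8 CPM after RA in FOXA2-positive cells (-0.75 ± 0.26 and -0.69 ± 0.29, adjusted p = 0.745 and 0.456), with fold changes of -0.50 and -0.44 without both RA libraries numbered 1. In these comparisons DESeq2 called none of the 8 either. Between 1 and 4 of the 8 had an unadjusted p under 0.05, as had 998 to 1666 of all 17813 genes. For BMP4, edgeR called 0.0786% of all genes in each fraction. For LDN it called 0.208% (FOXA2-positive) and 0.0393% (FOXA2-negative). The treatment comparisons share libraries with each other and with the fraction comparisons, so their values are not independent.

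Whether the fraction difference itself depended on the treatment was tested as an interaction. No interaction passed for any of the 8 genes by edgeR or DESeq2. In each of the 3 contrasts between 0 and 2 of the 8 had an unadjusted p under 0.05, as had 742 to 1100 of all 17813 genes. Of all genes, edgeR called 0.0337% (BMP4 against LDN) and 0.00561% (each agent against RA). The fraction difference of Cldn7, in BMP4 minus LDN, differed by 0.92 ± 0.39 on the log2 scale (edgeR adjusted p = 0.779). The fraction difference of Cdh1, in LDN minus RA, differed by 0.64 ± 0.28 (adjusted p = 0.860), and that of Cldn6, in LDN minus RA, differed by -0.63 ± 0.29 (adjusted p = 0.860). The calls in RA and their absence in BMP4 and LDN are therefore not shown to differ.

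Across the 17 libraries the genes most like each member were sought by the root-mean-square (RMS) difference of centred log2 CPM, among 6483 genes. For Cdh1 these were Rbmxl1 (0.22), Gins3 (0.26), Cog4 (0.27), Gap43 (0.27) and Zfp992 (0.27), of which the first 3 also lie on chromosome 8; the median over all genes was 0.56. For Cdh2 they were the gap junction gene Gja1 (0.33), the planar polarity gene Vangl1 (0.37), the neural tube gene Prtg (0.39), the Wnt carrier gene Wls (0.39) and the hexokinase gene Hk2 (0.39), against a median of 0.82. Gja1 averaged 186 ± 43.4 CPM in the 8 FOXA2-positive, against 91.2 ± 30.0 CPM in the 9 FOXA2-negative libraries. For Cldn6 they were H2afx (0.19), Epcam (0.20), Eci1 (0.21), Spc24 (0.21) and Mt1 (0.22), against a median of 0.43. Among the 8 genes themselves, Epcam and Cldn6 were the most alike (RMS difference 0.20) and Cdh2 and Cldn4 the least (1.54).

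Other genes of cell contacts were read from lists of adherens junction, tight junction, desmosome, cadherin, claudin and regulator genes, in the mean of the 3 treatments. FOXA2-positive cells held less RNA of 4 desmosome genes and 5 epithelial regulators, and more of the E-cadherin repressor gene Zeb1, where 7.62% of all genes were called. Of 10 adherens junction genes, 6 had a positive and 4 a negative fold change, with a list median of 0.16. Nectin2, a nectin that starts cell contacts, was the only one called (log2 fold change -0.50 ± 0.10, edgeR adjusted p = 0.00297). It averaged 179 ± 34.1 CPM in FOXA2-positive, against 248 ± 44.2 CPM in FOXA2-negative libraries (SD, n = 8 and 9). After BMP4 the fractions hardly differed, at 214 ± 12.1 CPM in FOXA2-positive, against 221 ± 24.5 CPM in FOXA2-negative cells (n = 3 each). After LDN they held 168 ± 14.0 CPM (n = 2) against 265 ± 33.9 CPM (n = 3). After RA they held 151 ± 26.9 CPM against 259 ± 66.0 CPM (n = 3 each). The catenin genes Ctnnb1 and Ctnna1, which tie cadherins to actin, had fold changes of 0.04 ± 0.09 and -0.13 ± 0.09. Of 9 other cadherin genes tested, edgeR and DESeq2 called none and 0 had an unadjusted p under 0.05. Of 8 other claudin genes tested, Cldn3 fell, with 23.4 ± 7.45 CPM in FOXA2-positive, against 39.3 ± 13.9 CPM in FOXA2-negative libraries (-0.77 ± 0.20, adjusted p = 0.0177). DESeq2 also called Cldn12, whose fold change was positive and which edgeR did not call (0.85 ± 0.28, edgeR adjusted p = 0.0608). Of 14 other tight junction and polarity genes, F11r, which encodes the adhesion molecule JAM-A, rose (0.59 ± 0.12, adjusted p = 0.00288) and Cgn, which encodes cingulin, fell (-0.55 ± 0.17, adjusted p = 0.0459). Tjp3 was called by DESeq2 but not by edgeR (-0.94 ± 0.31, edgeR adjusted p = 0.0614).

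Desmosomes hold epithelial cells together through intermediate filaments. All 8 desmosome genes tested had a negative fold change and 4 were called lower, with a list median of -0.41. These were Ppl (periplakin, -0.88 ± 0.16, adjusted p = 0.000816), Pkp3 (plakophilin-3, -0.95 ± 0.27, adjusted p = 0.0297), Dsg2 (desmoglein-2, -0.67 ± 0.17, adjusted p = 0.0158) and Pkp2 (plakophilin-2, -0.63 ± 0.16, adjusted p = 0.0153), all from edgeR. The desmoplakin gene Dsp was at -0.19 ± 0.16 (adjusted p = 0.564). All 15 genes of epithelial regulators had a negative fold change, and 5 were called lower, with a median of -0.69. Some signs rest on values near 0, as for Klf4 (-0.007 ± 0.49) and Rab25 (-0.02 ± 0.72). Within treatments 12 of the 15 were negative in BMP4, 14 in LDN and 14 in RA.

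Elf3, an epithelial transcription factor gene, had the smallest adjusted p of them and was called in all 3 treatments. It averaged 26.3 ± 3.79 CPM in FOXA2-positive, against 84.7 ± 25.4 CPM in FOXA2-negative cells after BMP4; 26.1 ± 3.28 CPM in FOXA2-positive, against 129 ± 50.7 CPM in FOXA2-negative cells after LDN; and 24.5 ± 9.18 CPM in FOXA2-positive, against 100.1 ± 9.24 CPM in FOXA2-negative cells after RA. Its log2 fold change was -2.01 ± 0.17 in the mean of treatments (edgeR adjusted p = 2.01e-08). The others were St14, the protease matriptase (-0.77 ± 0.18, adjusted p = 0.00787), its inhibitor Spint1 (-0.49 ± 0.13, adjusted p = 0.0195), the epithelial splicing factor Esrp1 (-0.69 ± 0.21, adjusted p = 0.0461) and Ovol1 (-4.08 ± 1.21, adjusted p = 0.0375), which averaged 0.612 ± 0.977 CPM in FOXA2-positive, against 2.88 ± 2.21 CPM in FOXA2-negative libraries and was named after its values were seen. Klf5 was called lower in LDN FOXA2-positive cells, at 17.2 ± 3.61 CPM (n = 2), than in BMP4 FOXA2-positive cells at 41.9 ± 4.68 CPM (n = 3; BMP4 over LDN 1.28 ± 0.28, adjusted p = 0.0425), a call lost without LDN FOXA2-positive library 2 (0.138) or 3 (0.563) or BMP4 FOXA2-positive library 1 (0.170) or 3 (0.129). It was also called lower against RA FOXA2-positive cells, which held 43.8 ± 6.73 CPM (LDN over RA -1.34 ± 0.29, adjusted p = 0.0426), a call lost without either LDN FOXA2-positive library, without RA FOXA2-positive library 1 or 3, and without both RA libraries numbered 1 (0.0700). With the spread from the compared groups alone, neither the BMP4 over LDN call (0.0913) nor the LDN over RA call (0.198) held.

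Of 9 genes listed as repressing E-cadherin or marking mesenchyme, the repressor gene Zeb1 and the E-protein gene Tcf4 were called higher in FOXA2-positive cells, and none was called lower. Zeb1 averaged 22.1 ± 5.14 CPM in FOXA2-positive, against 8.67 ± 4.19 CPM in FOXA2-negative cells after BMP4; 29.1 ± 3.57 CPM in FOXA2-positive, against 10.7 ± 0.353 CPM in FOXA2-negative cells after LDN; and 27.9 ± 8.72 CPM in FOXA2-positive, against 15.8 ± 5.34 CPM in FOXA2-negative cells after RA. Its mean log2 fold change was 1.20 ± 0.23 (edgeR adjusted p = 0.00103), and that of Tcf4 was 0.92 ± 0.12 (adjusted p = 9.93e-06). The mesenchymal genes Vim (0.22 ± 0.17, adjusted p = 0.557) and Fn1 (0.03 ± 0.13, adjusted p = 0.985) were not called. Neither were the repressors Snai1 (-0.81 ± 0.82, adjusted p = 0.680) and Snai2 (-0.63 ± 1.04, adjusted p = 0.848).

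Within single treatments the other calls were Nectin2 (-0.77 ± 0.17, edgeR adjusted p = 0.0196) and St14 (-1.27 ± 0.30, adjusted p = 0.0303) in RA, Tcf4 in BMP4 (1.02 ± 0.20, adjusted p = 0.00884) and LDN (1.11 ± 0.22, adjusted p = 0.00806), and Klf5 in LDN (-1.14 ± 0.28, adjusted p = 0.0468). Nectin2 lost its RA call without FOXA2-positive library 1 (0.134), FOXA2-negative library 2 (0.0975) or FOXA2-negative library 3 (0.156). St14 lost its RA call without FOXA2-positive library 1 (0.106) or 3 (0.183), or FOXA2-negative library 2 (0.124) or 3 (0.0846), and without both libraries numbered 1 (0.118). Tcf4 lost its BMP4 call without FOXA2-positive library 2 (0.0552) and its LDN call without FOXA2-positive library 3 (0.198) or FOXA2-negative library 3 (0.0571). Klf5 lost its LDN call in 4 of 5 such fits, with adjusted p up to 0.476 without FOXA2-positive library 3, and Elf3 lost none of its 3. With the spread estimated from the compared groups alone, Nectin2 (0.168) and St14 (0.0682) lost their RA calls and Klf5 its LDN call (0.144).

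The calls in the mean of treatments differed in how far they rested on 1 library. Elf3, Zeb1, Tcf4, Ppl, Nectin2 and F11r, like Cdh1, Cdh2, Epcam and Cldn4, kept their calls with each of the 17 libraries left out. Without LDN FOXA2-positive library 2 the calls of Cldn3 (adjusted p = 0.0773), Dsg2 (0.0646) and St14 (0.0531) were lost, and without LDN FOXA2-positive library 3 those of Pkp2 (0.0815) and Spint1 (0.0856). Cldn3 also lost its call without RA FOXA2-negative library 2 (0.0516). Pkp3 lost its call in 7 of the 17 fits, Cgn in 11 and Esrp1 in 13, and the highest adjusted p came without LDN FOXA2-positive library 2 for each, at 0.0878, 0.188 and 0.146. The fold change of Pkp3 was -0.66 without LDN FOXA2-positive library 2 and -1.68 without LDN FOXA2-positive library 3. Esrp1 also lost its call without both RA libraries numbered 1 (0.0731).

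**Figure D5:**
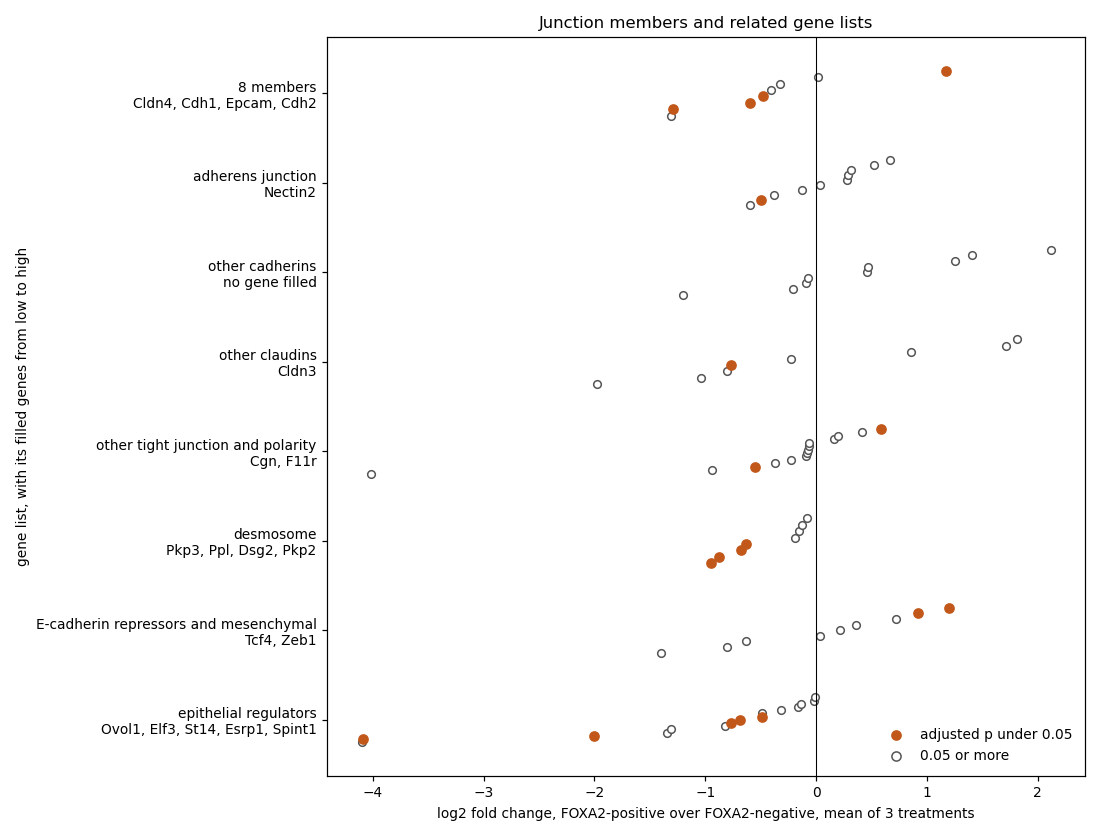
Log2 fold change of FOXA2-positive over FOXA2-negative cells, mean of 3 treatments (x axis), for the tested genes of each list (y axis), filled where the adjusted p is under 0.05, with the filled genes named from low to high. The desmosome and epithelial regulator genes all lie below 0, and Zeb1 and Tcf4 lie above it.

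Markers of other cell types moved with the sort as well. Of 8 pluripotency markers 7 were called lower in FOXA2-positive cells in the mean of treatments. After BMP4 their summed level was 381 to 496 CPM in FOXA2-positive, against 677 to 1002 CPM in FOXA2-negative libraries. After LDN it was 466 to 498 CPM in FOXA2-positive, against 833 to 1162 CPM in FOXA2-negative libraries, and after RA 426 to 516 CPM in FOXA2-positive, against 948 to 1215 CPM in FOXA2-negative libraries. The sums did not overlap between fractions in any treatment, and Nanog, a defining pluripotency gene, had no count in either LDN FOXA2-positive library.

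Of 8 surface ectoderm markers 4 were called lower, and Trp63 had no count in the 3 FOXA2-positive groups or in BMP4 FOXA2-negative cells. Their sums were 481 to 586 CPM in FOXA2-positive, against 510 to 538 CPM in FOXA2-negative libraries after BMP4, which overlap. They were 203 to 238 CPM in FOXA2-positive, against 489 to 627 CPM in FOXA2-negative libraries after LDN; and 150 to 228 CPM in FOXA2-positive, against 322 to 461 CPM in FOXA2-negative libraries after RA. Between BMP4 and LDN, Cdh1 was not called. In FOXA2-positive cells 4 of the 8 surface ectoderm markers were called higher after BMP4 (Tfap2a, Tfap2c, Krt18 and Gata3). There 6 fold changes were positive and 1 was negative. In FOXA2-negative cells 2 were called higher after BMP4 (Tfap2a and Gata3). The list as a whole did not rise there, with 3 positive and 5 negative fold changes and a median of -0.54. The endoderm markers Sox17 and Foxa1 were called higher in FOXA2-positive cells in the mean of treatments. Sox17 averaged 28.3 ± 14.1 CPM in the 8 FOXA2-positive libraries, against 5.80 ± 4.002 CPM in the 9 FOXA2-negative libraries (SD; log2 fold change 2.38 ± 0.32, edgeR adjusted p = 1.54e-05). Foxa1 averaged 11.8 ± 6.35 CPM in FOXA2-positive libraries, against 2.10 ± 2.00 CPM in FOXA2-negative libraries (2.54 ± 0.65, edgeR adjusted p = 0.0173).

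Of 6 neural progenitor markers edgeR and DESeq2 called none between the fractions in the mean of treatments. There 1 of the 6 had an unadjusted p under 0.05, as had 3605 of all 17813 genes. Their sums were 211 to 219 CPM in FOXA2-positive, against 142 to 196 CPM in FOXA2-negative libraries after BMP4; 360 to 365 CPM in FOXA2-positive, against 256 to 315 CPM in FOXA2-negative libraries after LDN; and 259 to 316 CPM in FOXA2-positive, against 177 to 279 CPM in FOXA2-negative libraries after RA. Of 6 mesoderm markers edgeR and DESeq2 called none, 0 had an unadjusted p under 0.05, and their sum was at most 11.4 CPM in any library. Cdh1 and Epcam are known to be carried by pluripotent cells too, and the part of other cell types in the differences of the junction genes was not tested.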

How the data were processed

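RNA of 17 SMART-Seq v2 libraries was measured. The authors deposited, for each library, counts by Ensembl identifier with no scaling. Build mm10 and the tools DESeq2 1.26.0, HTSeq 0.11.2, cutadapt 1.18 and UMI-tools 1.0.0 are listed per the submitters' processing notes. The aligner, the strand setting and the annotation release were not given in the sources used here. Summary lines that name no gene held 49.3% to 54.4% of tallied reads per library and were left out. Symbols, coordinates and exon lengths came from GENCODE M21 on GRCm38 (mm10).

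Tests used edgeR 4.0.16 in R 4.3.3: filterByExpr (minimum count 10, minimum total 15), TMM scaling, and a robust quasi-likelihood model of the 6 groups, with 11 residual degrees of freedom (common biological coefficient of variation 0.632). From it came 13 comparisons, adjusted over the 17813 genes kept at a threshold of 0.05; every adjusted p is from edgeR unless DESeq2 is named. The model was tested on simulated data. SE is approximate, being the size of a log2 fold change over the root of its F statistic. Python 3.11.15, pandas 2.3.3, numpy 2.4.6 and matplotlib 3.10.9 made the summaries and plots.

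The members, lists and alternatives were chosen with earlier results of these data known. List genes were named when called, with 5 CPM or more on average in the groups compared, up to 6 per list; nearest patterns were the 5 closest genes that averaged 20 CPM or more, after adding 0.5 to CPM before log2. Alternatives were DESeq2 1.42.0, RLE scaling, no filter, a filter of 5 CPM in 2 libraries, a block for the replicate number, the compared groups alone, an offset per chromosome and library, each library left out, and both RA libraries numbered 1 left out. Replicate numbers in the library titles were checked for pairing: over 6669 genes, deviations from group means of same-numbered fractions correlated at 0.587, 0.238 and 0.277 in RA, each over the limit of 0.1, at 0.0508, 0.0793 and 0.0769 in BMP4 and at 0.0566 and 0.0615 in LDN. In RA, libraries of different number also passed the limit. FOXA2-positive library 2 correlated with FOXA2-negative library 3 at 0.243, and FOXA2-positive library 3 with FOXA2-negative library 2 at 0.168. The numbers therefore set apart only the RA pair numbered 1, and RA libraries 2 and 3 were not shown to pair by number. The endoderm marker list is not reported here in full.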

Additional observations from a re-analysis of the deposited data

Results flagged for a closer look

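The difference between the fractions depended on the agent for 2 surface ectoderm markers outside the 8 junction genes, by the interaction of fraction with BMP4 against LDN. For Tfap2c, a transcription factor gene of surface ectoderm, the fraction difference in BMP4 minus that in LDN was 2.28 ± 0.38 on the log2 scale (edgeR adjusted p = 0.0130). Tfap2c averaged 21.8 ± 4.62 CPM in FOXA2-positive cells, against 56.6 ± 6.27 CPM in FOXA2-negative cells after BMP4 (SD, n = 3 each), and 6.47 ± 1.15 CPM in FOXA2-positive cells (n = 2), against 82.0 ± 17.8 CPM in FOXA2-negative cells (n = 3) after LDN. For Krt18, a keratin gene, it was 1.42 ± 0.26 (edgeR adjusted p = 0.0324). Krt18 averaged 251 ± 4.92 CPM in FOXA2-positive cells, against 166 ± 14.4 CPM in FOXA2-negative cells after BMP4 (n = 3 each), and 137 ± 0.532 CPM in FOXA2-positive cells (n = 2), against 243 ± 37.0 CPM in FOXA2-negative cells (n = 3) after LDN. Krt18 was thus higher in FOXA2-positive libraries after BMP4 and lower in them after LDN, with no overlap in either. With each of the 11 libraries of the groups left out, the Tfap2c call was lost 6 times (adjusted p up to 0.136) and the Krt18 call 9 times (up to 0.155), while DESeq2 called both. Tfap2c was also lower in FOXA2-positive cells in every treatment.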

How the results depend on the processing

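The 4 calls in the mean of treatments kept direction and significance under every alternative run, except that of Cdh1 with chromosome offsets (-0.30, adjusted p = 0.142). With each of 17 libraries left out, all 4 were called each time, while 881 to 1343 genes were called in all. In RA 2 of the 8 genes were called whichever of the 6 libraries was left out, and 0 when only the RA groups were fitted. In BMP4 1 gene was called with no filter on low counts (Cldn4) and 2 with DESeq2 (Cdh1 and Cldn4). In LDN 1 was called with no filter (Cldn4), 1 with the stricter filter (Epcam), 1 with chromosome offsets (Epcam), 2 when only the LDN groups were fitted (Epcam and Cldn4) and 2 with DESeq2 (Epcam and Cldn6). Between BMP4 and LDN FOXA2-positive cells DESeq2 called 1 (Cdh1). The cause of these changes was not tested. No share of all genes is given here for DESeq2, the filters, the chromosome offsets, the replicate block or the LDN groups alone. Those counts therefore have no background beside them.

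With the replicate number as a block, 3 of the 8 genes were called in RA and 4 in the mean of treatments, as without it, against 2 in BMP4 (Cdh1 and Cldn4) and 2 in LDN (Epcam and Cldn4), where the libraries share only a number. The block changed no call of the 8 genes elsewhere. Among the other named genes it ended the calls of Klf5 in LDN (adjusted p = 0.184), BMP4 against LDN (0.0821) and LDN against RA (0.0663) and of Esrp1 in the mean of treatments (0.0760).

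Signs turned only for values near 0 that passed no test. Cldn6 in RA was 0.053 without both libraries numbered 1. With single libraries left out, Cldn6 in RA ranged over -0.22 to 0.068, Tjp1 over -0.020 to 0.51 in RA, -0.12 to 0.37 in LDN and -0.074 to 0.11 in the mean of treatments, and Cldn7 in BMP4 over -0.042 to 0.36. Restricting the fit to the compared groups was not run for the mean of treatments, which uses all groups. Depth limits Cdh3 most, at 47 to 204 counts per group.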
